A study of Homo sapiens with 21 samples.

Results

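Transcript levels of 9 genes of MHC class I antigen presentation were followed across 7 clones of Panc-1, an established human line of pancreatic ductal carcinoma, that had become resistant to a drug. The genes are HLA-B, HLA-C, HLA-E, HLA-F, B2M, TAP1, TAP2, TAPBP and NLRC5, taken from the count table by gene name on the numbered chromosomes, and they make up 9 of its 58233 genes. The clones ATUX8H and ATUX9D came from a culture adapted to ATUX, SMAP8D, SMAP9C and SMAP6G from one adapted to SMAP, and Sor6G and Sor9H from one adapted to Sorafenib, a kinase inhibitor. The design text of the series lists the drugs under activators of the phosphatase PP2A, and one protocol writes SMAP2 where the other labels write SMAP. Each culture was raised stepwise to 8 µM of its drug over 4 months, then cloned by serial dilution, and every clone was still in 8 µM of that drug when 3 libraries were made from it. Clones were picked for sequencing partly on qRT-PCR results, and clones of a drug may share a culture of origin. Untreated Panc-1 was not analysed here, so each value compares resistant clones with each other. The study asks how continued exposure to the drugs affects gene expression.

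MHC class I molecules carry peptides from proteins made inside the cell to its surface, where CD8 T cells and natural killer cells inspect them. Peptides cut by the proteasome are pumped into the endoplasmic reticulum by the transporter TAP1-TAP2, and tapasin (TAPBP) holds the empty class I molecule beside that transporter. HLA-B and HLA-C are polymorphic classical heavy chains, HLA-E and HLA-F non-classical ones, and beta-2-microglobulin (B2M) is the light chain that they share. NLRC5 is a transactivator that works with the RFX, CREB and NF-Y factors bound to class I promoters, and interferons and NF-kB act on the same promoters through sites of their own. Tumours, pancreatic carcinoma among them, are known for losing parts of this pathway.

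Libraries held 21022621 to 27691256 counts (median 23026429), and the 9 genes took 0.115 to 0.207% of them. Levels are CPM (counts scaled to a common library total, TMM-adjusted), given as mean ± SD over the 2 ATUX, 3 SMAP or 2 Sorafenib clones, or, for a clone, over its 3 libraries. Differences are log2 fold changes ± SE from edgeR's quasi-likelihood test, and a gene is called where its p, adjusted over all genes tested, is below 0.05. Drugs were compared with the clone as the replicate, clones of a drug with the library as the replicate. Where the clones of a drug were all taken from the same adapted culture, the drug p-values measure only the spread between sister clones. Effects of the drug and of the culture then cannot be separated. Libraries 3 of ATUX8H, ATUX9D and Sor9H stood apart from their own repeats, with a chi-square per degree of freedom of 29.4 to 30.1, 20.3 to 25.0 and 14.0 to 15.6, against 2.26 to 5.54 between all other repeats. KRT8, KRT18, KRT19 and SOX9 were measured at 66.1 CPM or more in every library, whereas the duct gene CFTR had 0 counts in all 21 libraries. The 16 immune markers summed to 2.52 to 5.42 CPM in ATUX, 2.26 to 3.33 CPM in SMAP and 1.21 to 2.02 CPM in Sorafenib libraries, with PTPRC at no more than 0.761 CPM and CD3D, CD3E and MS4A1 at 0 counts. The highest of them were CD14, at up to 3.15 CPM, and ITGAM, at up to 2.63 CPM. The 7 endothelial markers summed to at most 2.83 CPM. The 9 fibroblast markers summed to 25.0 to 59.6, 62.9 to 183.9 and 15.7 to 22.6 CPM in ATUX, SMAP and Sorafenib libraries, most of it COL1A1, and the part of these genes in the differences below was not tested. In bulk RNA, fewer cells of a type and less RNA per cell cannot be told apart.

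For all 9 genes the mean over the SMAP clones was the highest of the 3 drugs. Compared with ATUX clones, 4 of 9 genes were lower in ATUX (5.06% of the 18613 genes tested were lower in ATUX) and 0 of 9 were higher (5.27% of all genes), with 10.3% of all genes called either way. These 4 were NLRC5, HLA-B, HLA-C and B2M. At an unadjusted p below 0.05 edgeR also had 0 higher (5 lower), as did adjusted DESeq2 (5 lower) and limma-voom (7 lower). The median log2 difference of the 9 genes was -0.66, that of all genes 0.02. Compared with Sorafenib clones, 5 of 9 were higher in SMAP (16.8% of all genes) and 0 of 9 lower (17.7%), with 34.5% called either way. Unadjusted edgeR (7 higher), adjusted DESeq2 (6) and limma-voom (8) likewise had 0 lower. The 5 were NLRC5, HLA-F, TAP1, TAP2 and HLA-B, and the medians were 1.24 for the 9 genes and 0.01 for all genes. Between ATUX and Sorafenib clones HLA-F was higher in ATUX (1 of 9, with 13.3% of all genes higher) and B2M lower (1 of 9, with 12.5% lower), and 25.8% of all genes were called. The medians were 0.32 and 0.01. The 3 drug comparisons share clones, so their values are set side by side and not counted as separate evidence.

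**Figure D1:**
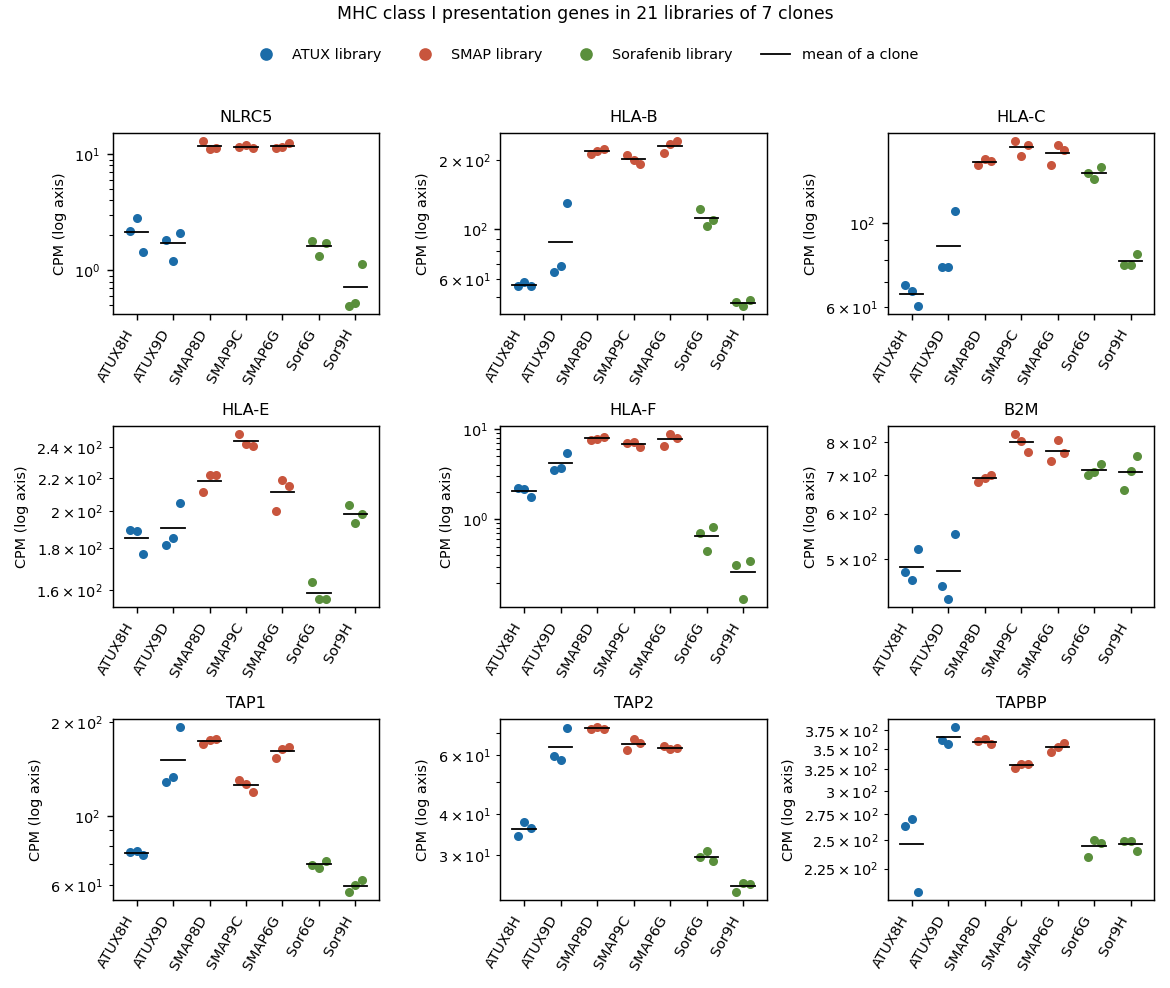
Levels of the 9 genes in each of 21 libraries (points, CPM on a log axis), grouped by clone and coloured by drug, with the mean of each clone as a bar. SMAP libraries sit at 11.1 CPM or more of NLRC5 and all other libraries at 2.84 CPM or less, while HLA-E spans 155.9 to 249.4 CPM.

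NLRC5 (ENSG00000140853, GRCh38 chromosome 16, 56989485 to 57083531, plus strand), the transactivator, was high in every SMAP library and low in all others. It was measured at 13.1, 11.1 and 11.3 CPM in the libraries of SMAP8D, at 11.6, 11.9 and 11.4 CPM in those of SMAP9C and at 11.4, 11.6 and 12.5 CPM in those of SMAP6G. The ATUX libraries gave 2.20, 2.84 and 1.44 CPM for ATUX8H and 1.83, 1.21 and 2.10 CPM for ATUX9D. The Sorafenib libraries gave 1.81, 1.35 and 1.72 CPM for Sor6G and 0.495, 0.524 and 1.13 CPM for Sor9H. SMAP libraries did not overlap with those of either other drug, while ATUX and Sorafenib libraries overlapped. The drug means were 1.94 ± 0.313 CPM (ATUX), 11.8 ± 0.109 CPM (SMAP) and 1.17 ± 0.643 CPM (Sorafenib). The log2 difference of ATUX from SMAP was -2.61 ± 0.38, a 6.10-fold lower level (edgeR adjusted p = 0.0134). SMAP exceeded Sorafenib by 3.31 ± 0.39, or 9.94-fold (edgeR adjusted p = 0.00235), and this call held in all 15 alternative analyses (adjusted p at most 0.0109). The call against ATUX was lost without ATUX9D (adjusted p = 0.0505). ATUX and Sorafenib did not differ past the threshold (log2 = 0.70, edgeR adjusted p = 0.212, 95% interval -0.21 to 1.61). NLRC5 had 11 to 66 counts in each ATUX or Sorafenib library and 239 to 331 in each SMAP library.

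The classical heavy chain HLA-B (ENSG00000234745, chromosome 6, 31269491 to 31357188, minus strand) followed the same split between SMAP and ATUX clones, with the Sorafenib clones apart from each other. Its level was 213.2, 220.1 and 224.7 CPM in SMAP8D, 211.7, 201.4 and 193.2 CPM in SMAP9C and 215.9, 236.4 and 243.6 CPM in SMAP6G. It was 55.9, 58.2 and 56.3 CPM in ATUX8H and 64.6, 68.7 and 129.4 CPM in ATUX9D. The Sorafenib clones gave 121.8, 103.3 and 108.9 CPM in Sor6G and 47.5, 45.8 and 48.5 CPM in Sor9H. Every SMAP library was above every other library, and Sor6G lay above Sor9H without overlap. The annotated span of HLA-B reaches into HLA-C, with which it shares 35 exonic bases, and 17.8% of its exonic bases also lie in a pseudogene on the opposite strand. The log2 difference of ATUX from SMAP was -1.61 ± 0.38 (edgeR adjusted p = 0.0457), and SMAP exceeded Sorafenib by 1.45 ± 0.37 (edgeR adjusted p = 0.0264). The first call was lost without the filter on low counts and without either ATUX clone or any SMAP clone (adjusted p up to 0.147), the second without the filter, any SMAP clone or Sor9H (up to 0.0706). ATUX and Sorafenib did not differ past the threshold (log2 = -0.16, edgeR adjusted p = 0.79, 95% interval -1.09 to 0.78), and the sign of that difference turned without ATUX8H (0.10) or Sor6G (0.57).

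HLA-C (ENSG00000204525, chromosome 6, 31268749 to 31272130, minus strand) was lower in ATUX than in SMAP clones, while Sor6G stood near the SMAP clones. SMAP libraries ran from 142.4 to 165.4 CPM (median 150.9) and ATUX libraries from 60.3 to 107.4 CPM (median 72.5), without overlap. Sor6G was at 135.8, 131.1 and 140.9 CPM and Sor9H at 77.5, 77.5 and 83.1 CPM. Sor9H lay within the range of the ATUX libraries, and Sor6G above that range and just below the SMAP libraries. ATUX differed from SMAP by -1.01 ± 0.24 (edgeR adjusted p = 0.0471), a call lost without either ATUX clone or any SMAP clone (adjusted p up to 0.145). Neither SMAP against Sorafenib (log2 = 0.50 ± 0.24, edgeR adjusted p = 0.149) nor ATUX against Sorafenib (log2 = -0.51 ± 0.26, edgeR adjusted p = 0.183) passed the threshold. In the order of clone means, SMAP9C, SMAP6G, SMAP8D and Sor6G followed each other with no step past the threshold (edgeR adjusted p = 0.606, 0.456 and 0.322). The step from Sor6G down to ATUX9D passed it (log2 = 0.66, edgeR adjusted p = 1.28e-06).

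Because these heavy chains and B2M were lower in ATUX than in SMAP clones together with NLRC5, the reference sequence before their starts is shown. The entries are from RefSeq on GRCh38.p14, on the strand of the gene, from 200 to 41 bases before the start. They are reference alleles, and the alleles of Panc-1 were not read. Capitals mark every match to any of 5 motifs, searched on both strands, where matches may share bases. One is the NF-kB consensus, and one a paired form in which GAAA, any 2 bases and again GAAA follow each other. Its short form begins with GAA in place of the first GAAA. The others are TGACG and the motif CCAAT, which a gene shows as its reverse complement ATTGG where it lies on the other strand. CCAAT is known as the core of NF-Y sites, TGACG of CREB and ATF sites, and the paired GAAA form of interferon response elements, read as TTTC where it lies on the other strand. The stretches lie at chr6:31357220-31357379 (HLA-B, minus strand), chr6:31272133-31272292 (HLA-C, minus strand) and chr15:44711317-44711476 (B2M, plus strand).
HLA-B: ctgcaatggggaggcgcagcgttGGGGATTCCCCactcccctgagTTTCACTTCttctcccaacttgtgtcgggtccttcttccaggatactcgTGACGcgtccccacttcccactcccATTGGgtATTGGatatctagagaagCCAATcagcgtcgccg
HLA-C: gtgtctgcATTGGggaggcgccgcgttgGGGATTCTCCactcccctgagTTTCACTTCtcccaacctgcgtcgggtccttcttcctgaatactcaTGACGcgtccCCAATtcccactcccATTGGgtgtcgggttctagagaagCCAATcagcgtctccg
B2M: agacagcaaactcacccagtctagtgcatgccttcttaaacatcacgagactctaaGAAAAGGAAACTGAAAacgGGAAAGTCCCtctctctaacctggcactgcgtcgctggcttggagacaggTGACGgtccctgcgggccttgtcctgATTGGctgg
All 3 stretches hold TGACG followed by ATTGG with 10 to 30 bases between them, the order of a CREB-type and an NF-Y site. That arrangement was found in 3 of the 8 promoter windows of the 9 genes (TAP1 has 2 starts) and in 0.365% of 35116 windows of all genes, each 250 bases long. HLA-B and HLA-C were identical at 143 of 164 aligned positions (87.2%), and HLA-B and B2M at 47.2%. The motifs were chosen with these sequences in view, so the shares describe the windows. A match is not evidence of binding.

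The windows of HLA-F, TAP1, TAP2 and TAPBP hold the paired GAAA form, shown here with 30 bases around it because these genes and B2M supply every member window that has it. The sites are chr6:29723268-29723297 (HLA-F, plus strand), chr6:32853816-32853845 (TAP1, minus strand), chr6:32838781-32838810 (TAP2, minus strand) and chr6:33314079-33314108 (TAPBP, minus strand).
HLA-F: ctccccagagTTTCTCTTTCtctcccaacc
TAP1: cggccgcTTTCGATTTCGCTTTCccctaaa
TAP2: tggctgggGAAGCGAAAGCGAAAgctgccc
TAPBP: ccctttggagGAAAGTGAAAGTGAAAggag
The paired form was found in 5 of 8 member windows and in 3.02% of all windows. The short form was in 3 of 8 (6.56% of all), the NF-kB consensus in 5 of 8 (5.21%), CCAAT in 5 of 8 (32%) and TGACG in 4 of 8 (21.2%). In TAP2 the matches to both GAAA forms share bases. HLA-E and NLRC5 were not matched to a promoter entry.

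HLA-E (ENSG00000204592, chromosome 6, 30489467 to 30494205, plus strand), whose product is a ligand of the natural killer receptor NKG2A, had the smallest SD of the 9 genes over the clones. ATUX libraries ran from 177.3 to 205.1 CPM (median 187.4), SMAP libraries from 200.1 to 249.4 CPM (median 221.8) and Sorafenib libraries from 155.9 to 203.6 CPM (median 178.6). The ranges of neighbouring drugs overlapped, and no drug comparison passed the threshold. ATUX minus SMAP was -0.25 ± 0.14 on the log2 scale, ATUX minus Sorafenib 0.07 ± 0.15 and SMAP minus Sorafenib 0.32 ± 0.14 (adjusted p from edgeR 0.263, 0.754 and 0.107). That SD was 0.20 on the log2 scale, against 0.28 for TAPBP, 0.53 for HLA-C and 0.95 for HLA-B, whereas TAPBP had the narrower range over the clones (0.58 against 0.64). SMAP9C held the highest level at 244.3 ± 4.45 CPM, and Sor6G the lowest at 158.5 ± 4.34 CPM. Between them, SMAP8D, SMAP6G, Sor9H, ATUX9D and ATUX8H followed with no step past the threshold (edgeR adjusted p = 0.635, 0.102, 0.0922 and 0.679).

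HLA-F (ENSG00000204642, chromosome 6, 29722775 to 29738528, plus strand), a non-classical chain, was the most variable of the 9 genes, with an SD of 1.88 over the clones on the log2 scale. It was measured at 7.61, 7.83 and 8.23 CPM in SMAP8D, 7.07, 7.24 and 6.28 CPM in SMAP9C and 6.43, 8.81 and 7.96 CPM in SMAP6G. ATUX8H gave 2.20, 2.15 and 1.75 CPM and ATUX9D 3.54, 3.73 and 5.40 CPM. Sor6G gave 0.71, 0.449 and 0.818 CPM and Sor9H 0.315, 0.131 and 0.347 CPM, from 3 to 20 counts a library. The libraries of the 3 drugs did not overlap, and within ATUX and within Sorafenib neither did those of the clones. SMAP exceeded Sorafenib by 4.00 ± 0.53 on the log2 scale (edgeR adjusted p = 0.00313), a call that held in all 15 alternative analyses (adjusted p at most 0.0195). ATUX exceeded Sorafenib by 2.73 ± 0.52 (edgeR adjusted p = 0.0139), lost without Sor9H (adjusted p = 0.063). ATUX against SMAP did not pass the threshold (log2 = -1.27 ± 0.46, edgeR adjusted p = 0.125). Of its exonic bases 28.5% also lie in exons of genes on the opposite strand, and the strand setting of the counting is not given in the sources used here.

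B2M (ENSG00000166710, chromosome 15, 44711477 to 44718877, plus strand), the shared light chain, was lower in ATUX clones than in the clones of either other drug. ATUX8H gave 474.7, 460.1 and 520.3 CPM and ATUX9D 449.3, 425.5 and 552.5 CPM. SMAP libraries ran from 682.8 to 827.2 CPM (median 764.5) and Sorafenib libraries from 660.6 to 755.7 CPM (median 709.8). All 6 ATUX libraries were below all others, while SMAP and Sorafenib libraries overlapped. ATUX differed from SMAP by -0.66 ± 0.11 (edgeR adjusted p = 0.0202) and from Sorafenib by -0.58 ± 0.12 (edgeR adjusted p = 0.0184). The first call was lost without ATUX8H, ATUX9D or SMAP9C (adjusted p up to 0.0712), the second without any ATUX or Sorafenib clone (up to 0.086). SMAP and Sorafenib did not differ past the threshold (log2 = 0.08, edgeR adjusted p = 0.607, 95% interval -0.18 to 0.35). Around B2M, up to 1 Mb away, 32 other genes were tested, with a median log2 difference of 0.06 for ATUX against SMAP and of -0.41 for ATUX against Sorafenib.

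TAP1 (ENSG00000168394, chromosome 6, 32845209 to 32853978, minus strand) and TAP2 (ENSG00000204267, chromosome 6, 32821833 to 32838780, minus strand), the transporter chains, were lowest in the Sorafenib clones and split the ATUX clones. TAP1 was at 76.5, 77.1 and 75.1 CPM in ATUX8H and at 128.9, 133.0 and 193.2 CPM in ATUX9D. SMAP libraries ran from 119.4 to 177.1 CPM (median 163.7) and Sorafenib libraries from 56.8 to 71.7 CPM (median 65.01). ATUX9D fell within the range of the SMAP libraries except for its library 3, which was above all of them, whereas ATUX8H lay just above the Sorafenib libraries. TAP2 was at 34.3, 37.7 and 36.4 CPM in ATUX8H and 59.6, 58.1 and 72.6 CPM in ATUX9D. It was at 62.3 to 73.003 CPM in SMAP libraries (median 65.5) and 23.3 to 30.9 CPM in Sorafenib libraries (median 26.8). No Sorafenib library reached the lowest ATUX library of either gene. SMAP exceeded Sorafenib by 1.24 ± 0.30 for TAP1 (edgeR adjusted p = 0.022) and by 1.31 ± 0.25 for TAP2 (edgeR adjusted p = 0.00935). The TAP1 call was lost without SMAP8D, SMAP6G, Sor6G or Sor9H (adjusted p up to 0.128) and the TAP2 call without Sor9H (0.0689). ATUX against Sorafenib gave 0.81 ± 0.32 for TAP1 (edgeR adjusted p = 0.11) and 0.88 ± 0.26 for TAP2 (edgeR adjusted p = 0.0503). TAP2 passed the threshold in 9 of the 15 alternative analyses of that comparison (adjusted p over all 15 from 2.08e-05 to 0.22). ATUX against SMAP passed for neither gene (log2 = -0.44 and -0.43, edgeR adjusted p = 0.375 and 0.286). In GENCODE 29, 32.3% of the exonic bases of TAP2 also belong to AL669918.1, a same-strand gene, so the counting could have split or dropped its reads. PSMB8-AS1, on the opposite strand, shares 9.49% of the exonic bases of TAP1.

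TAPBP (ENSG00000231925, chromosome 6, 33299694 to 33314387, minus strand), which encodes tapasin, was at one level in ATUX9D and the SMAP clones and at a lower one in ATUX8H and the Sorafenib clones. ATUX8H gave 262.9, 269.9 and 206.2 CPM and ATUX9D 362.1, 356.6 and 379.8 CPM. SMAP libraries ran from 326.7 to 362.9 CPM (median 352.8) and Sorafenib libraries from 235.0 to 250.6 CPM (median 248.3). The libraries of ATUX9D and SMAP lay above all others, with no overlap. No drug comparison passed the threshold. ATUX minus SMAP was -0.18 ± 0.17 on the log2 scale, ATUX minus Sorafenib 0.32 ± 0.19 and SMAP minus Sorafenib 0.50 ± 0.17 (adjusted p from edgeR 0.543, 0.245 and 0.0657). SMAP against Sorafenib passed in 7 of 15 alternative analyses, DESeq2 among them, with a log2 difference of 0.48 to 0.54 (adjusted p over all 15 from 5.54e-05 to 0.203). In the order of clones only the step from SMAP9C down to ATUX8H passed it (log2 = 0.45, edgeR adjusted p = 1.33e-06).

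**Figure D2:**
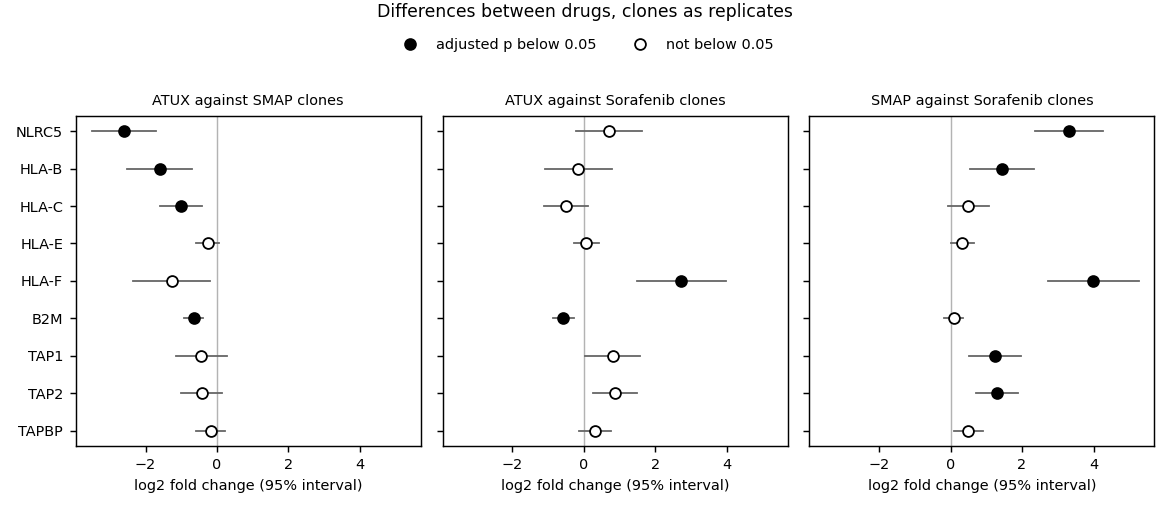
Log2 fold changes of the 9 genes between drugs (points) with 95% intervals (lines), from the fit with clones as replicates. Filled points have an adjusted p below 0.05, 4 in ATUX against SMAP, 2 in ATUX against Sorafenib and 5 in SMAP against Sorafenib.

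Clones of the same drug differed in these genes too, with 6 of 9 called between the ATUX clones and 6 of 9 between the Sorafenib clones. Nothing in the labels says that the repeats of a clone were separate cultures, so these p-values measure only the spread between libraries, which may be technical. That spread was estimated in 1 fit of all 21 libraries and shared over the 7 clones. The libraries that stood apart from their repeats therefore also bear on the comparisons of other clones. ATUX8H was lower than ATUX9D in 6 of 9 genes (23% of the 16504 genes tested were lower) and higher in 0 of 9 (23.1% were higher), with 46.1% called either way. DESeq2 and an unadjusted edgeR p below 0.05 gave the counts 6 and 0 as well. The 6 were TAP1 (log2 = -0.98 ± 0.10), TAP2 (-0.80 ± 0.07), TAPBP (-0.56 ± 0.06), HLA-F (-1.03 ± 0.19), HLA-B (-0.61 ± 0.18) and HLA-C (-0.40 ± 0.09), with edgeR adjusted p from 4.62e-10 to 0.0124. Without the third ATUX libraries the same 6 genes passed, but HLA-B came to -0.20 and HLA-C to -0.17, and NLRC5 was then higher in ATUX8H (0.76, edgeR adjusted p = 0.0104, against 0.36 and 0.225 with all libraries). HLA-E (log2 = -0.03) and B2M (0.04) did not pass in either analysis.

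Sor6G was higher than Sor9H in 5 of 9 genes (16% of all genes were higher in Sor6G) and lower in 1 of 9 (17.7%), with 33.7% called. The higher genes were HLA-F (log2 = 1.30 ± 0.37), HLA-B (1.22 ± 0.18), NLRC5 (1.16 ± 0.29), HLA-C (0.76 ± 0.09) and TAP2 (0.28 ± 0.07), and the lower one was HLA-E (-0.34 ± 0.05), with edgeR adjusted p from 1.29e-06 to 0.00785. The HLA-F call rested on few counts and was lost without library 2 of Sor9H (adjusted p = 0.0594). B2M, at 714.3 ± 17.7 CPM in Sor6G and 709.1 ± 47.6 CPM in Sor9H, did not differ past the threshold (log2 = -0.01, edgeR adjusted p = 0.954, 95% interval -0.15 to 0.14).

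Between SMAP clones, 1 to 3 of the 9 genes were called. SMAP8D was higher than SMAP9C in TAP1 (0.44 ± 0.10) and lower in HLA-E (-0.19 ± 0.05) and B2M (-0.24 ± 0.07), which is 1 of 9 genes higher (17.3% of all genes) and 2 of 9 lower (17.9%), with 35.1% called. SMAP8D was higher than SMAP6G in 1 of 9, TAP2 (0.18 ± 0.06; 17.2% of all genes), and lower in 0 of 9 (17.6%), with 34.8% called. At an unadjusted edgeR p below 0.05, 1 was lower, and DESeq2 had 0. SMAP9C was higher than SMAP6G in 1 of 9, HLA-E (0.22 ± 0.05; 20% of all genes), and lower in 1 of 9, TAP1 (-0.35 ± 0.10; 19.7%), with 39.7% called. The edgeR adjusted p of these 6 differences ran from 0.000515 to 0.0315. The TAP2 call was lost in 5 of the 6 fits that left out a library of SMAP8D or SMAP6G. NLRC5 was at 11.8 ± 1.09, 11.6 ± 0.273 and 11.8 ± 0.606 CPM in SMAP8D, SMAP9C and SMAP6G, and no pair of them differed past the threshold (largest log2 = -0.02, 95% interval -0.36 to 0.32).

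**Figure D3:**
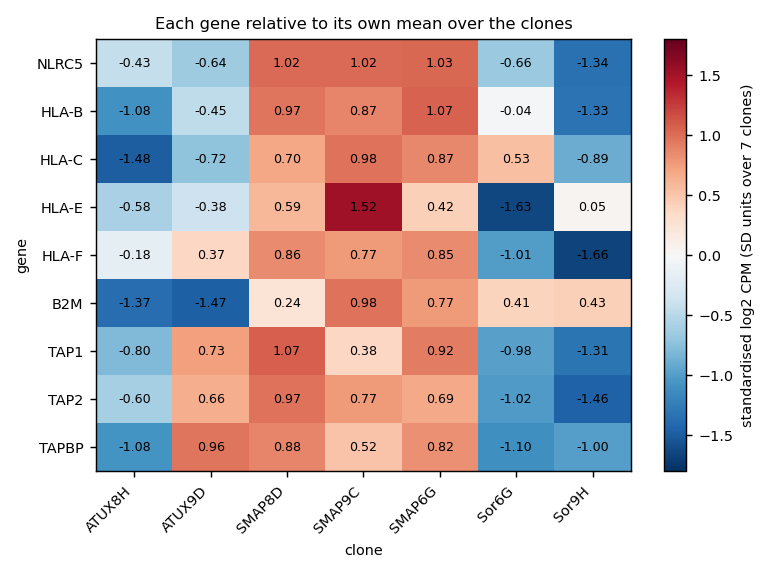
Log2 CPM of each gene in each clone, less the mean of that gene over the 7 clones and divided by its SD (colour and number, SD units). All values of the 3 SMAP clones are above 0, and B2M is low in both ATUX clones, while TAPBP is low in ATUX8H and high in ATUX9D.

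With each gene scaled to its own mean and SD over the 7 clones, the average over the 9 genes was 0.81, 0.87 and 0.83 SD units in SMAP8D, SMAP9C and SMAP6G. It was -0.10 in ATUX9D, -0.61 in Sor6G, -0.84 in ATUX8H and -0.95 in Sor9H. Genes followed this average to different degrees. NLRC5 and HLA-B each had r = 0.94 with it and TAP2 r = 0.90 over the 7 clones, HLA-C r = 0.80 and HLA-E r = 0.73, and B2M only r = 0.47. Each gene is itself part of the average, and clones of a drug are not independent, so these values describe the set.

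Levels of different genes were compared per kilobase of gene length, as ratios within a clone. The length was that given in the count table, 3051 bases for HLA-B and 6089 for B2M. In GENCODE 29 the exonic bases of all their transcripts together were 3051 and 6079. For TAP1 the gap was larger, with 4578 bases in the count table and 4805 in GENCODE 29. The length used is not that of the transcript that a clone expresses, so levels and ratios across genes depend on it. Differences in 1 ratio between clones do not. B2M was the most abundant, with 78.9 ± 1.08, 123.9 ± 9.16 and 116.9 ± 0.60 CPM per kb in ATUX, SMAP and Sorafenib clones. The ratio of HLA-B to HLA-C was 1.24, 1.05 and 1.24 in SMAP8D, SMAP9C and SMAP6G, 0.717 and 0.821 in ATUX8H and ATUX9D, and 0.677 and 0.489 in Sor6G and Sor9H. HLA-B thus exceeded HLA-C per kilobase in the SMAP clones and lay below it in the others. HLA-E to HLA-B was 0.933 to 1.24 in SMAP clones, 3.35 and 2.27 in ATUX8H and ATUX9D, and 1.45 and 4.31 in Sor6G and Sor9H. HLA-B to B2M was 0.504 to 0.632 in SMAP clones and 0.133 to 0.363 in the other 4. TAP1 to TAP2 stayed between 2.70 and 3.55 in all 7 clones. Reads that match several HLA genes limit these ratios: 2.72% of the 50-base words of HLA-B transcripts, 5.38% of those of HLA-C and 4.34% of those of HLA-E also occur in transcripts of other genes.

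**Figure D4:**
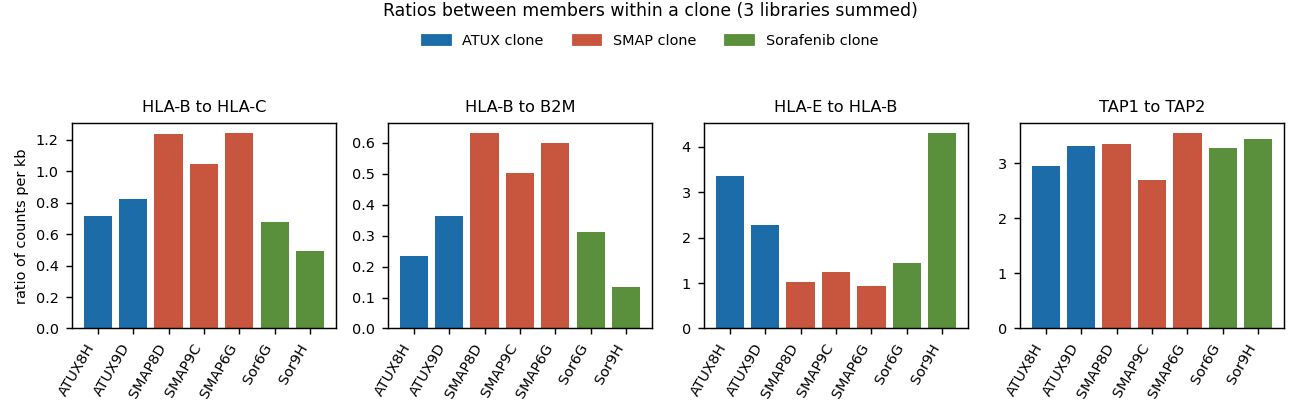
Ratios of counts per kilobase between pairs of the 9 genes within each clone (bars, 3 libraries summed, axes from 0). HLA-B to HLA-C is above 1 in the SMAP clones alone, and TAP1 to TAP2 differs little between clones.

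The wider class I pathway was followed in 84 other genes, of which 80 were tested. Relative to SMAP clones, 2 of them were higher in ATUX (5.27% of all genes) and 9 lower (5.06% of all genes). Relative to Sorafenib clones, 18 were higher (13.3% of all genes) and 14 lower (12.5%) in ATUX, and SMAP had 27 higher (16.8%) and 12 lower (17.7%). The same shares of all genes stand beside each list that follows. Their median log2 differences were -0.13, 0.08 and 0.23. All 7 genes of the immunoproteasome and its activators were higher in SMAP than in Sorafenib clones (median 0.98), as were 7 of 8 peptide-trimming enzymes (median 1.01). PSMB9, an inducible catalytic subunit that makes peptides suited to class I, averaged 51.8 ± 5.40 CPM in SMAP clones against 15.8 ± 3.04 CPM in Sorafenib clones (log2 = 1.70 ± 0.34, edgeR adjusted p = 0.0121). PSMB10, another, averaged 2.08 ± 0.462 CPM in ATUX clones against 6.39 ± 0.148 CPM in SMAP clones (log2 = -1.63 ± 0.24, edgeR adjusted p = 0.0142), and edgeR called no other of the 7 at an adjusted p below 0.05 in that comparison. Lower in ATUX were 4 of the 7 at an unadjusted edgeR p below 0.05, and 3 each with adjusted DESeq2 and limma-voom. PSMB5, the constitutive counterpart of PSMB8, was higher with ATUX (145.2 ± 6.19 CPM) than with SMAP (112.2 ± 1.89 CPM, edgeR adjusted p = 0.049). PSME3, the nuclear activator, averaged 136.4 ± 3.80 CPM in ATUX clones against 56.3 ± 2.60 CPM in Sorafenib clones (log2 = 1.27 ± 0.11, edgeR adjusted p = 0.00237).

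Both aminopeptidases that trim peptides in the endoplasmic reticulum were lower with ATUX than with SMAP. ERAP1 averaged 94.9 ± 4.89 against 209.2 ± 16.01 CPM (log2 = -1.14 ± 0.19, edgeR adjusted p = 0.0184). ERAP2 averaged 48.9 ± 7.90 against 118.9 ± 10.3 CPM (log2 = -1.28 ± 0.14, edgeR adjusted p = 0.00806). Among the cytosolic peptidases, BLMH averaged 68.8 ± 3.59 CPM in ATUX clones against 24.4 ± 1.78 CPM in Sorafenib clones (log2 = 1.49 ± 0.11, edgeR adjusted p = 0.00177). Of 8 loading chaperones, SMAP clones had 2 above the Sorafenib clones, and ATUX clones had 1, TAPBPL, below the SMAP clones. CANX, the chaperone calnexin, was at 1423 ± 21.9 CPM with SMAP, 1089 ± 91.2 CPM with ATUX and 492.2 ± 76.2 CPM with Sorafenib. SMAP exceeded Sorafenib by 1.53 ± 0.14 and ATUX exceeded it by 1.14 ± 0.15 (adjusted p from edgeR 0.00125 and 0.00491). TAPBPL, a peptide editor related to tapasin, averaged 8.78 ± 1.796 CPM in ATUX, 19.9 ± 3.34 CPM in SMAP and 17.2 ± 3.41 CPM in Sorafenib clones, lower in ATUX in both comparisons (edgeR adjusted p = 0.025 and 0.028).

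Of 9 factors that act with NLRC5 at class I promoters or are related to it, 3 were below the SMAP level in ATUX clones. RFXANK, a subunit of the RFX complex, averaged 17.3 ± 1.44 CPM in ATUX, 39.7 ± 5.07 CPM in SMAP and 33.97 ± 1.01 CPM in Sorafenib clones. ATUX was lower in both comparisons (log2 = -1.20 ± 0.15 and -0.98 ± 0.16, edgeR adjusted p = 0.00991 and 0.00802). The other two were RFX5, its DNA-binding subunit, at 89.2 ± 8.07 against 155.8 ± 10.7 CPM, and CIITA, the relative of NLRC5 that drives class II genes, at 0.0934 ± 0.0523 against 4.13 ± 1.37 CPM. Both were named after their values were seen. With Sorafenib as the reference, calls among these 9 factors went both ways. ATUX had 1 above and 3 below that reference, and SMAP had 3 above and 2 below. Of 21 interferon and NF-kB regulators, edgeR called 0 between ATUX and SMAP clones (4 lower in ATUX at an unadjusted p below 0.05, 4 with adjusted DESeq2 and 5 with limma-voom, and 0 higher in each). Relative to Sorafenib clones, ATUX had 2 higher and 5 lower, and SMAP 4 higher and 4 lower. IRF1, a factor that binds interferon response elements, averaged 48.8 ± 21.2 CPM in ATUX, 109.2 ± 20.2 CPM in SMAP and 29.04 ± 3.16 CPM in Sorafenib clones. SMAP exceeded Sorafenib by 1.91 ± 0.30 (edgeR adjusted p = 0.0054), and ATUX against SMAP did not pass (log2 = -1.17 ± 0.29, edgeR adjusted p = 0.0518). SOCS1, an inhibitor of JAK signalling, averaged 10.1 ± 2.98 CPM in SMAP clones against 1.74 ± 1.26 CPM in Sorafenib clones (log2 = 2.54 ± 0.53, edgeR adjusted p = 0.0125). STAT3 was higher with ATUX (685.1 ± 159.5 CPM) than with Sorafenib (296.2 ± 15.8 CPM, edgeR adjusted p = 0.00872). IFNGR2, a chain of the interferon gamma receptor, went the other way, with 57.4 ± 4.12 CPM in SMAP clones against 128.1 ± 17.0 CPM in Sorafenib clones (log2 = -1.17 ± 0.12, edgeR adjusted p = 0.00159).

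Molecules related to class I were also followed. Of 11 tested, ATUX clones had 1 above and 1 below the SMAP clones, and 4 above and 3 below the Sorafenib clones, while SMAP clones had 2 above and 4 below the Sorafenib clones. Between ATUX and SMAP clones, adjusted DESeq2 and unadjusted edgeR each had 4 above and 1 below, and limma-voom 3 and 1. MICB, a stress ligand of the receptor NKG2D, averaged 101.2 ± 12.7 CPM in ATUX, 52.4 ± 4.04 CPM in SMAP and 20.6 ± 5.89 CPM in Sorafenib clones, so that the ATUX clones held most of it. ATUX exceeded SMAP by 0.95 ± 0.18 (edgeR adjusted p = 0.027) and Sorafenib by 2.29 ± 0.22 (edgeR adjusted p = 0.00266). ULBP1, another NKG2D ligand, was instead highest with Sorafenib, at 17.8 ± 2.09 CPM against 5.07 ± 1.85 CPM with ATUX and 7.88 ± 1.37 CPM with SMAP (edgeR adjusted p = 0.0095 and 0.0162). RAET1E, from the same group of ligands, was at 5.28 ± 0.657 CPM with SMAP and 1.65 ± 0.578 CPM with Sorafenib (edgeR adjusted p = 0.0094). FCGRT, the heavy chain of the neonatal Fc receptor, which also pairs with B2M, was at 92.1 ± 15.5 CPM with Sorafenib, 11.6 ± 5.35 CPM with ATUX and 8.07 ± 3.82 CPM with SMAP (edgeR adjusted p = 0.0114 and 0.0032). PROCR, the protein C receptor, was at 67.7 ± 10.2 CPM with Sorafenib and 33.4 ± 11.4 CPM with SMAP (edgeR adjusted p = 0.0286). MARCH9, a ubiquitin ligase of the family that removes class I from the surface, was at 11.4 ± 3.65 CPM with Sorafenib against 1.97 ± 1.26 CPM with ATUX and 1.82 ± 0.417 CPM with SMAP (edgeR adjusted p = 0.0165 and 0.00637).

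Of the 9 genes, 7 lie in the major histocompatibility region of chromosome 6. The other 131 tested genes between HLA-F and TAPBP had median log2 differences of -0.01 (ATUX against SMAP), -0.06 (ATUX against Sorafenib) and -0.10 (SMAP against Sorafenib). The 7 members there ranged from -1.61 (HLA-B) to -0.18 (TAPBP), from -0.51 (HLA-C) to 2.73 (HLA-F) and from 0.32 (HLA-E) to 4.00 (HLA-F). The medians of -0.66, 0.32 and 1.24 for all 9 genes also take in NLRC5 and B2M, which lie elsewhere. Without HLA genes and genes of the pathway lists, 114 of the 131 other genes remained, with medians of 0.01, -0.09 and -0.14. HLA-G, a non-classical chain close to HLA-F, had differences of -1.62, 0.17 and 1.79. Around NLRC5 on chromosome 16, up to 1 Mb away, 37 other genes were tested, with medians of 0.01, 0.17 and 0.12, next to -2.61, 0.70 and 3.31 for NLRC5.

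**Figure D5:**
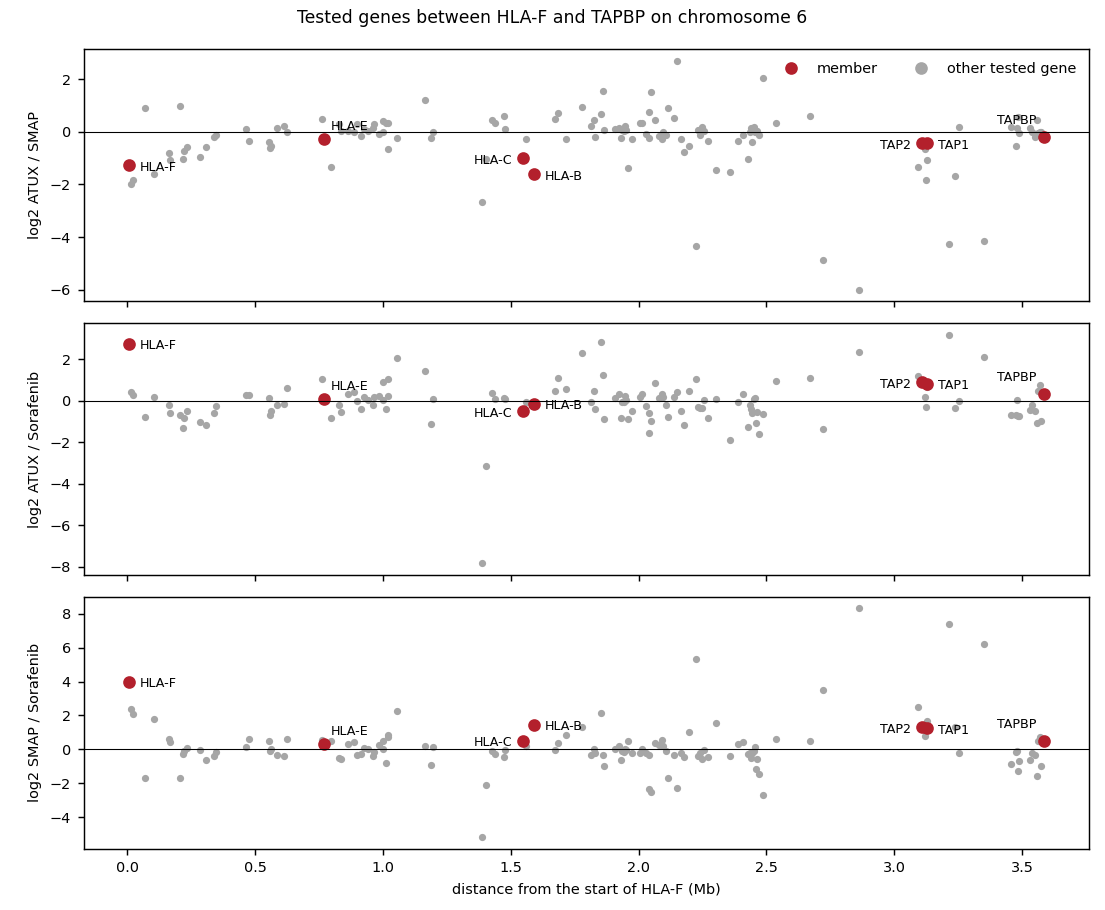
Log2 fold changes between drugs of the genes tested between HLA-F and TAPBP on chromosome 6, by the distance of each gene's midpoint from the start of HLA-F (Mb). Red points are members and grey points other genes, whose medians were -0.01, -0.06 and -0.10 in the panels from top to bottom.

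The genes whose levels over the 7 clones were most like the average of the 9 were sought among 3140 others with a mean of at least 5 CPM and an SD of at least 0.5 on the log2 scale. The closest were C9orf172 (r = 0.99), PPM1D (0.99), RP11-312J18.5 (0.99), ARMC6 (0.98), DNAJC21 (0.98), NPTX1 (0.98), PSMB9 (0.98) and C5orf56 (0.98). The annotated span of PSMB9 on chromosome 6 (32844136 to 32859585) contains that of TAP1. NPTX1, a secreted pentraxin, had the widest range of them, from 4.09 to 134.8 CPM over the clones, and ARMC6 ran from 22.3 to 60.6 CPM. PPM1D, a phosphatase known as a target of p53, ran from 4.66 to 12.7 CPM. The points are 7 clones of 3 drugs, so these values only describe the pattern.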

How the data were processed

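Poly-A RNA of 21 libraries was prepared with the Illumina TruSeq Stranded mRNA kit, per the labels' protocols. The deposited table holds whole-number counts per gene, not normalized. Per the submitters' processing notes, cutadapt 1.15, Bowtie2 2.3.3.1, STAR 2.5.2b, SAMtools 1.5, featureCounts 1.5.3 and GRCh38 were used. How strand and multiply matching reads were set in the counting was not given in the sources used here. Columns were matched by library name, and 0 columns belonged to other samples.

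Models were run in R 4.3.3 using edgeR 4.0.16 (TMM, filterByExpr, robust quasi-likelihood, Benjamini-Hochberg over all genes). Drugs were compared on 7 clone sums (18613 genes), clones on 21 libraries (16504 genes), and neighbours in the order of clones from a fit of all clone pairs. The scripts were tested on simulated data. Alternatives used DESeq2 1.42.0 and limma 3.58.1. Exon overlap was read from GENCODE 29.

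The members, gene lists and tests were chosen with earlier results of these data known. All 9 members are named. From the pathway lists, up to 5 called genes per drug comparison and direction are named, ranked by the size of their log2 difference among those averaging 5 CPM or more in the higher group, along with the 8 genes most like the members' average.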

Additional observations from a re-analysis of the deposited data

Results flagged for a closer look

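Among the libraries of a drug (6 of ATUX, 9 of SMAP and 6 of Sorafenib), a value was noted when its gap to the next one, as a share of the whole range, exceeded Dixon's 95% critical value. Chance alone gives this in about 1 of 20 sets of independent, normally distributed values. Libraries of a drug are grouped in clones, so that rate may not hold here. Of 27 sets (9 genes in 3 drugs), 2 met this. HLA-B in library 3 of ATUX9D was at 129.4 CPM, next to 68.7 CPM in the nearest ATUX library. HLA-C in the same library was at 107.4 CPM, next to 76.8 CPM. That library also had the highest ATUX value of HLA-E (205.1 CPM), HLA-F (5.40 CPM), B2M (552.5 CPM), TAP1 (193.2 CPM), TAP2 (72.6 CPM) and TAPBP (379.8 CPM). Without the third ATUX libraries, ATUX differed from SMAP clones by -1.82 for HLA-B and -1.09 for HLA-C (edgeR adjusted p = 0.0269 and 0.0317), next to -1.61 and -1.01 with them.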

How the results depend on the processing

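Counts of called members depended on what was taken as the replicate. With 21 libraries as replicates of the drugs, with or without the replicate block, 8 (ATUX against SMAP), 7 (ATUX against Sorafenib) and 8 (SMAP against Sorafenib) of 9 members were called, against 4, 2 and 5 with clones as replicates. Taking the clone as a random block in limma-voom gave 7, 4 and 8. Leaving out 1 clone at a time gave 1 to 4, 0 to 4 and 2 to 6. Over all genes the calls ran from 560 (without SMAP9C) to 8375 (21 libraries), from 1430 (without Sor9H) to 10378 (21 libraries) and from 2761 (without Sor9H) to 10972 (21 libraries), against 1921, 4810 and 6428. Leaving out the third ATUX libraries changed the counts of members by more than 1.5 times for SMAP8D against SMAP9C (3 to 6), SMAP8D against SMAP6G (1 to 2) and SMAP9C against SMAP6G (2 to 4). These comparisons hold no ATUX library but come from the fit whose spread is shared over all clones. Smaller changes were seen for ATUX against Sorafenib (2 to 3), SMAP against Sorafenib (5 to 6), ATUX8H against ATUX9D (6 to 7) and Sor6G against Sor9H (6 to 7). HLA-B between SMAP9C and SMAP6G then had a log2 difference of -0.20 (edgeR adjusted p = 0.000587), against -0.19 (edgeR adjusted p = 0.425) with all libraries. For SMAP8D against SMAP6G the count was also 2 with no filter and 2 with the replicate block, and 0 to 1 when 1 library was left out. The labels tie same-numbered repeats of different clones by number alone. Their deviations correlated at -0.08 to 0.21 (median 0.01) over 63 pairs, of which 5 were over 0.1, and 11 of 21 libraries correlated best with their own number, a hint from the data and not the design. The block changed no other count of members by more than 1.5 times. Leaving out the third Sor9H library, chosen after the data were seen, gave 4, 3 and 5 members in the drug comparisons. The cause of these changes was not tested.

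Signs turned only for differences that were not called. With the third ATUX libraries left out these were HLA-E between ATUX8H and ATUX9D (0.063), NLRC5 between SMAP8D and SMAP9C (0.0048) and B2M between Sor6G and Sor9H (0.0015). For NLRC5 between SMAP8D and SMAP9C the value was also 0.0048 with DESeq2 size factors, 0.0039 with DESeq2 and 0.021 with no filter. NLRC5 between SMAP8D and SMAP6G was 0.00012 with DESeq2, and B2M between Sor6G and Sor9H 0.010 with no filter. When 1 clone or library was left out, the log2 ranges that crossed 0 were -0.50 to 0.059 (TAPBP, ATUX against SMAP), -0.66 to 0.57 and -0.10 to 0.23 (HLA-B and HLA-E, ATUX against Sorafenib), -0.066 to 0.018 and -0.031 to 0.16 (HLA-E and B2M, ATUX8H against ATUX9D), -0.089 to 0.040 (NLRC5, SMAP8D against SMAP9C), -0.099 to 0.030 and -0.096 to 0.11 (NLRC5 and HLA-F, SMAP8D against SMAP6G), -0.042 to 0.029 (NLRC5, SMAP9C against SMAP6G), and -0.063 to 0.053 and -0.036 to 0.015 (B2M and TAPBP, Sor6G against Sor9H). Over the 27 drug differences of single members (9 genes in 3 comparisons) and their alternatives, direction and call were those of the edgeR fit 323 times, a call was gained 48 times and lost 30 times, and the sign turned 4 times. With 3 to 20 counts a library, HLA-F in the Sorafenib clones is limited by depth.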
